A study of Mus musculus with 45 samples.

Results

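The transcripts described here are those of the mitochondrial genome: every gene symbol that starts with mt- in SLAM-seq tables of the embryonic mouse cortex. The tables listed 24 such genes among 53491 genes, of which 6 were mRNAs and 18 were tRNAs. The GENCODE annotation of the mitochondrial chromosome (build GRCm38, release M21) holds 37 genes, and the other 13, made up of 7 mRNAs, 4 tRNAs and both rRNAs, were not analysed here.

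In SLAM-seq, cells take up 4-thiouridine (4sU), a uridine analogue that is built into new RNA, and chemical alkylation then makes it read as C in place of T. The share of covered Ts that read as C, the conversion rate, is therefore a measure of how much of a gene's RNA was made in the labelling period. Cortical cells of wild-type embryos, taken at 3 stages (E11.5, E14.5, E16.5), were cultured in neural progenitor medium, labelled with 100 uM 4sU for 20 h, and chased with 5 mM uridine for 0, 2, 4, 8 or 12 h. Each stage had 3 replicates, A, B and C, and each replicate pooled the cells of several embryos (7 at E11.5, 2 at the later stages) and was split over 5 wells, so that 15 groups of 3 libraries gave 45 libraries. No library without 4sU was analysed here, so a conversion rate includes sequencing errors and other T-to-C reads.

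Both strands of the mitochondrial genome are transcribed in the matrix as long precursors that cover many genes. RNA-cleaving enzymes cut them on both sides of the tRNAs that lie between most mRNAs, and most mRNAs then receive a short poly(A) tail. The mRNAs encode core subunits of the respiratory chain, whose remaining subunits are made from nuclear genes, so transcripts of both genomes are needed for respiration. Neurons depend heavily on respiration. These libraries were made by poly(A) capture, in which tRNAs without a tail are largely lost, and in which fewer cells of a type and less RNA per cell cannot be told apart in such bulk samples.

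The libraries held between 15.9 and 43.9 M reads in the tables and between 229 and 629 M covered Ts (M, 1e+06). Summed markers of radial glia, the neural progenitors, fell between 0 h libraries from 9578 to 10113 CPM (reads of a gene per 1e+06 reads of the library) at E11.5 to 1305 to 1430 at E16.5, and neuronal markers went from 2713 to 3256 up to 7844 to 8169. E11.5 libraries also held markers of other cells. The 10 erythroid markers summed to 1805 to 3928 CPM at E11.5 against 87.7 to 208 at the later stages, and the 6 meningeal fibroblast markers to 434 to 665 against 14.05 to 48.7. Endothelial markers summed to at most 5.79 and microglial markers to at most 13.5 in any 0 h library, and no marker of the 6 lists was at 0 in every library of a stage. The 3 libraries of E11.5 at 12 h stood apart, since Gm42418, a locus that overlaps a ribosomal RNA repeat, took 2.97% to 6.76% of their reads against 0.149% to 2.05% in the other 42.

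Only 5 of the 24 genes had over 500 covered Ts in all 45 libraries, the depth used here for conversion rates. They were mt-Co1 and mt-Co2, which encode subunits of cytochrome c oxidase (complex IV), mt-Cytb, the cytochrome b of complex III, mt-Nd5, a proton-pumping subunit of complex I, and mt-Tl1, a leucine tRNA. On the plus strand, mt-Co1 lies at chrM:5328-6872, mt-Co2 at chrM:7013-7696, mt-Nd3 at chrM:9459-9806, mt-Nd5 at chrM:11742-13565 and mt-Cytb at chrM:14145-15288 (GRCm38), each a single exon, and mt-Nd6 lies on the minus strand at chrM:13552-14070, where its end overlaps that of mt-Nd5. Of 2 further complex I subunits, mt-Nd3 passed that depth in 36 libraries and mt-Nd6 in 39. The methionine tRNA mt-Tm passed it in 23. The other 16 tRNAs never did. The highest value among them was 267 covered Ts, from mt-Tv, the valine tRNA, whose reads numbered at most 36 in a library. mt-Ty had no read in any library, and mt-Tl1 and mt-Tm together gave 96.1% of the 31042 tRNA reads summed over all libraries.

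The sequences of both better covered tRNAs show where label could be read, with each T in capitals (GRCm38, plus strand, mt-Tl1 at chrM:2676-2750 and mt-Tm at chrM:3845-3913, sequence from RefSeq).
mt-Tl1: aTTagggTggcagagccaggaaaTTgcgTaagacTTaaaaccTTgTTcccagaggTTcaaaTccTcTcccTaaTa
mt-Tm: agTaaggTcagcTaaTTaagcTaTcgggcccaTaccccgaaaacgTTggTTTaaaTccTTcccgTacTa
mt-Tl1 had 19 Ts in 75 bases and each of its reads covered 5.85 of them on average. The mRNA reads covered between 16.6 (mt-Nd5) and 25.2 (mt-Nd6) Ts, so a tRNA read carried less information on label. mt-Nd6 is the only member mRNA on the minus strand, and 43.7% of its bases are T against 27.6% to 32.8% in the other 5.

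Parts of the nuclear genome are near-identical to these genes, which limits what can be said of them. An alignment of the mitochondrial genome to the nuclear chromosomes of GRCm38 found 7 stretches of at least 200 bases with at least 95% identity. The longest, chr1:24611535-24616188 on the minus strand, matched the mitochondrial genome from base 6390 to base 11042 at 99.9% identity with 2 substitutions and 1 added base. It holds all 684 bases of mt-Co2 with no difference, all 348 bases of mt-Nd3 with 1 difference, and 483 of the 1545 bases of mt-Co1. A copy on chromosome 2 (chr2:22587288-22590534) holds all of mt-Co1 with 37 differing positions and all of mt-Co2 with 28, and 1 on chromosome 13 (chr13:85126562-85127515) holds 52.4% of mt-Nd5 with 46. No copy that met these limits held any part of mt-Cytb, mt-Nd6, mt-Tl1 or mt-Tm. How reads that fit both places equally were assigned is not given in the sources used here, so values of mt-Co2 and mt-Nd3 are uncertain, and those of mt-Co1 in part.

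The difference in mt-Nd3 is itself a T in the mitochondrial genome and a C in the copy, T9461C, with positions counted from 1 on the mitochondrial plus strand. It is shown in capitals in the surrounding bases (chrM:9439-9498 on the plus strand and chr1:24613080-24613139 on the minus strand, GRCm38), because a read of the copy placed on mt-Nd3 would show the same letter change as label.
chrM: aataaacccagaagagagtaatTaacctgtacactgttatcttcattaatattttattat
chr1: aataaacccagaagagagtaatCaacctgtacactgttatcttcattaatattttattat

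The first question was how much of each transcript the cells held at each stage. Transcripts of 3 genes, mt-Co1, mt-Cytb and mt-Nd5, made up between 99.2% and 99.8% of the reads of the 6 mRNAs in every library. At 0 h the 6 mRNAs took 0.318% ± 0.0638 of all reads at E11.5 (SD, n = 3), 0.518% ± 0.0508 for E14.5 and 0.444% ± 0.0493 in E16.5 pools. The E11.5 libraries lay between 0.274% and 0.391%, below the lowest E14.5 library at 0.481%, whereas E16.5 overlapped both. The 18 tRNAs summed to 18.2 ± 7.26 CPM at E11.5, 26.9 ± 3.85 for E14.5 and 23.2 ± 3.73 in E16.5 pools, with ranges of 12.9 to 26.5, 23.3 to 31.0 and 18.9 to 25.9 that overlapped.

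mt-Co1 had 1496, 1453 and 2015 CPM in the replicates A, B and C of E11.5, 3293, 2502 and 2462 at E14.5, and 2018, 2458 and 2345 at E16.5. All E14.5 libraries lay above all E11.5 and E16.5 libraries. For mt-Cytb the values were 894, 868 and 1331, then 1616, 1493 and 1672, then 1241, 1543 and 1453. The E11.5 libraries lay below E14.5, which overlapped E16.5. mt-Nd5 had 474, 397 and 543, then 814, 786 and 805, then 621, 831 and 763, with E11.5 again below both later stages. mt-Co2, with the reservation about its nuclear copy, had 14.9, 16.3 and 17.1, then 33.4, 27.2 and 30.3, then 15.4, 20.4 and 15.1, so only E14.5 stood apart.

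**Figure D1:**
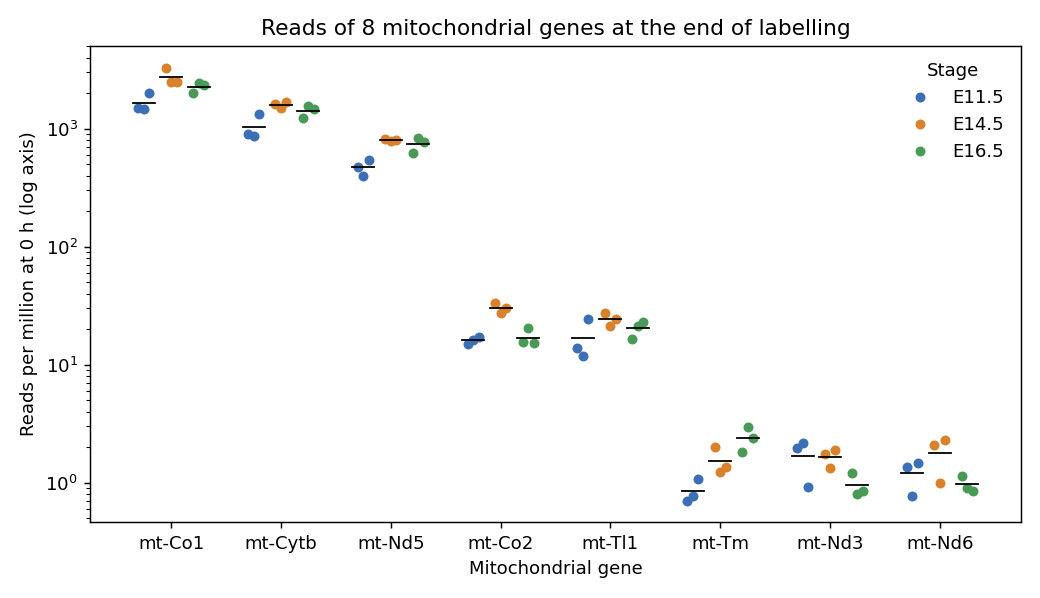
CPM at 0 h (vertical log axis) of 8 mitochondrial genes in each library, with points for the 3 replicates of each stage and black bars for their means. mt-Co1, mt-Cytb and mt-Nd5 lie between 397 and 3293 CPM, and the other 5 genes at or below 33.4.

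From E11.5 to E14.5, 4 of the 9 members with over 10 covered Ts in all 0 h libraries rose (edgeR quasi-likelihood test, Benjamini-Hochberg adjusted p under 0.05 over 18408 genes), and none fell. Of all genes tested, 25.1% rose in this comparison. The log2 fold changes were 0.78 ± 0.14 (SE) for mt-Co1 (adjusted p = 0.000419), 0.67 ± 0.14 for mt-Cytb (0.00156), 0.81 ± 0.12 for mt-Nd5 (8.21e-05) and 0.95 ± 0.12 for mt-Co2 (3.68e-05). Each was under 2-fold, the largest being 1.93-fold, so none met a rule that also asks for a 2-fold change. The values of mt-Nd6, mt-Tl1, mt-Tm and mt-Tv lay between 0.50 and 0.72 and that of mt-Nd3 at -0.03, all with adjusted p above 0.05. mt-Tl1 passed without E11.5 replicate C (0.99, adjusted p = 0.000334), whose 24.6 CPM stood above the 13.9 and 11.7 of the other replicates. mt-Tm passed without that replicate or E14.5 replicate B, and mt-Nd6 without E14.5 replicate B. Over the same step 8 of 8 erythroid and 5 of 6 meningeal markers fell, and their part in the rise was not tested.

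From E14.5 to E16.5 the 3 abundant mRNAs gave log2 fold changes of -0.24 ± 0.14 (mt-Co1), -0.15 ± 0.14 (mt-Cytb) and -0.08 ± 0.12 (mt-Nd5), none past the threshold. mt-Co2 fell by 0.84 ± 0.12 on the log2 scale (adjusted p = 0.000115, edgeR). The low-count members mt-Nd6 (-0.89 ± 0.33, adjusted p = 0.0391) and mt-Tv (-1.61 ± 0.51, 0.019) fell and mt-Tm rose (0.83 ± 0.29, 0.03), so that 4 of 9 members passed, beside 49.5% of all genes. The calls were lost without E14.5 A or C or E16.5 B or C for mt-Nd6, without E14.5 B or C or E16.5 B or C for mt-Tm, and without E14.5 A or E16.5 A for mt-Tv (values from -0.69 to -0.80, 0.67 to 0.84 and -1.22 to -1.34). At 0 h mt-Tv had 36, 9 and 13 reads in the replicates of E14.5 and 2, 5 and 5 in those of E16.5. Between the 12 h libraries mt-Co2 gave -0.04 (adjusted p = 0.924, edgeR).

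Per kilobase of gene, which adjusts for gene length alone, mt-Co1 stood highest at E14.5 with 1782 ± 303 CPM per kb (SD, n = 3). mt-Cytb followed with 1393 ± 79.9, which differed from it by little more than 1 SD. mt-Nd5 had 440 ± 7.87 and mt-Tl1 325 ± 40.1. mt-Co2 had 44.3 ± 4.49, with the reservation about its nuclear copies, and mt-Tm 22.3 ± 6.14. mt-Nd3, with a like reservation, had 4.73 ± 0.838 and mt-Nd6 3.44 ± 1.34, which did not differ beyond their spread. In reads, not scaled by length, mt-Co1 lay between 69.0 and 387 times above mt-Co2 across the 45 libraries. Both are cut from the same precursor strand and are separated by a pair of tRNA genes. The part of read placement on the nuclear copies in this gap was not tested. The Nd6 transcript is known to carry little or no poly(A) tail.

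The next question was how much label each transcript held after 20 h. The rates of mt-Co1 at 0 h were 0.887%, 0.776% and 1.297% at E11.5, 0.858%, 0.801% and 0.780% for E14.5, and 1.35%, 1.43% and 1.41% in E16.5 pools. Those of mt-Cytb were 0.942%, 0.829% and 1.33%, then 0.947%, 0.890% and 0.825%, then 1.42%, 1.52% and 1.49%. mt-Nd5 had 0.899%, 0.784% and 1.21%, then 0.928%, 0.861% and 0.799%, then 1.42%, 1.45% and 1.41%. These mRNAs were thus labelled to nearly the same degree within a library, with E11.5 replicate C high for all 3 genes. Their rates were 0.661 to 0.917 times the library's median gene and lay between the 2.12 and the 24.2 percentile of genes with over 500 covered Ts in all 0 h libraries.

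mt-Tl1 was labelled more than these mRNAs in each of the 9 libraries, with 1.08%, 1.08% and 1.91% at E11.5, 1.70%, 1.33% and 1.36% for E14.5, and 2.14%, 2.47% and 2.12% in E16.5 pools. Its rate was 0.988 to 1.52 times the library median. mt-Tm, at fewer covered Ts, ranged from 0.617% to 3.17% at E11.5, from 2.14% to 4.39% for E14.5 and from 3.52% to 3.96% in E16.5 pools. mt-Nd6, also at fewer covered Ts, lay between 0.248% (from 16 reads) and 1.33% over the 9 libraries.

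mt-Co2 and mt-Nd3 had far higher rates. mt-Co2 read 4.59%, 4.39% and 5.70% at E11.5, 4.87%, 4.45% and 4.30% for E14.5, and 7.51%, 8.32% and 7.76% in E16.5 pools, which is 3.67 to 4.43 times the library median and at the 99.9 percentile or above in every library. mt-Nd3, at fewer covered Ts, lay between 2.57% and 8.82% (the latter from 34 reads). Pseudogenes in the nuclear copies had like values. Gm28661, the copy of mt-Co2 on chromosome 1, read 4.78% ± 1.42 at E11.5, 4.28% ± 0.567 for E14.5 and 7.15% ± 0.686 in E16.5 pools (SD, n = 3). Gm28438, the copy of mt-Nd3, read 5.16% ± 1.61, 4.23% ± 0.243 and 7.03% ± 0.234. Gm29216, the copy of the end of mt-Co1, read 4.41% ± 0.461, 3.47% ± 0.159 and 6.06% ± 0.341, against below 1.5% for mt-Co1 itself. The chromosome 2 copy of mt-Co1, Gm13340, read 3.73% ± 0.665, 3.40% ± 0.214 and 5.04% ± 0.315, whereas Gm13341, the more divergent copy of mt-Co2 there, read 1.52% ± 0.956, 1.07% ± 0.0887 and 1.84% ± 0.320. The copy of mt-Nd5 on chromosome 13, Gm4076, had at most 537 covered Ts at 0 h.

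The 5 pseudogenes on chromosomes 1 and 2 had stage means between 2.76 and 18.6 CPM at 0 h. Gm28661 had 4.71, 8.33 and 4.87 CPM in order of stage, where mt-Co2 had 16.1, 30.3 and 16.97. Gm28438 had 3.92, 3.41 and 2.76 CPM, where mt-Nd3 had 1.68, 1.65 and 0.959. mt-Co2 was thus counted above its copy on chromosome 1 at each stage, and mt-Nd3 below its copy. The part of read placement in the rates and levels of mt-Co2 and mt-Nd3 was not tested.

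**Figure D2:**
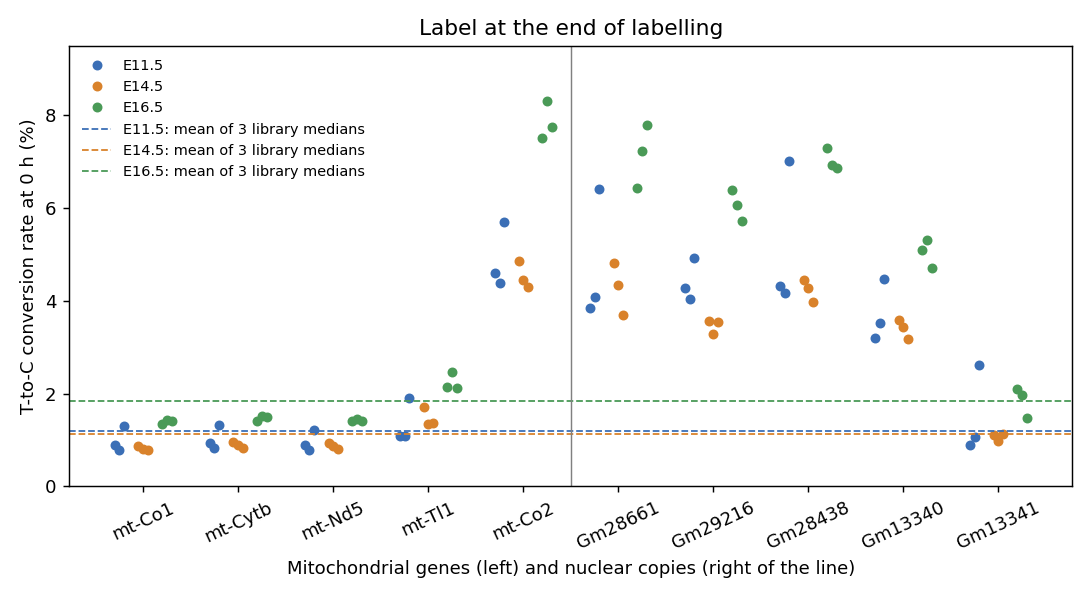
T-to-C conversion rate at 0 h (vertical axis, percent) in each of the 9 libraries for the 5 members with enough covered Ts (left) and for 5 pseudogenes in nuclear copies (right of the line), with dashed lines at the mean of the library medians for each stage. mt-Co1, mt-Cytb and mt-Nd5 lie below the line of their stage on average, and mt-Co2 lies with the copies at 3.17% to 8.32%, of which Gm13341 alone is lower.

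Between E11.5 and E14.5 the rates at 0 h of the 5 members tested differed by -0.24 to 0.15 on the log2 scale, with SEs of 0.16 to 0.24. None passed (limma on log2 of rate plus 0.01 percentage points, adjusted p = 0.999 for each; none had an unadjusted p under 0.05), beside 0.391% of 12530 genes. From E14.5 to E16.5 all 5 rose, as did 80.8% of genes. The changes were 0.77 ± 0.18 (SE) for mt-Co1, 0.79 ± 0.18 for mt-Co2, 0.73 ± 0.17 for mt-Cytb, 0.72 ± 0.16 for mt-Nd5 and 0.62 ± 0.24 for mt-Tl1, with adjusted p from 3.07e-05 to 0.0152. That of mt-Tl1 was lost without E14.5 B, E14.5 C or E16.5 B (0.56, 0.57 and 0.55, adjusted p = 0.0535, 0.0542 and 0.0737, limma). The median gene moved by 0.71. Relative to the library median the 5 members differed by -0.09 to 0.09 and none passed.

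Loss of label over the chase was then followed. At 2 h the median gene still held 84.2% ± 2.42 of its 0 h rate at E11.5, 89.2% ± 0.621 for E14.5 and 79.2% ± 2.35 in E16.5 pools (SD, n = 3). mt-Co1 held 76.6% ± 2.08, 82.6% ± 1.04 and 75.0% ± 1.14, below the median gene in 9 of 9 replicates. mt-Cytb held 67.7% ± 3.76, 74.1% ± 2.50 and 64.4% ± 1.75. mt-Nd5 held 53.8% ± 1.02, 59.3% ± 2.93 and 48.4% ± 0.836, and mt-Tl1 38.4% ± 12.2, 41.9% ± 2.98 and 36.7% ± 2.61. At 4 h the median gene held 47.1%, 47.6% and 39.8%.

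At 4 h mt-Co1 held 51.4% ± 1.86, 59.5% ± 2.995 and 48.7% ± 1.43 at the 3 stages, and now lay above the median gene in 9 of 9 replicates. mt-Nd5 held 26.6% ± 1.55, 31.8% ± 4.18 and 23.2% ± 0.274, and mt-Tl1 17.1% ± 3.89, 20.53% ± 7.01 and 12.3% ± 3.17, both below it in all 9. mt-Tl1 lay at most at the 10.8 percentile of genes at 4 h. mt-Co2 held 65.4% ± 7.85, 69.9% ± 9.91 and 58.8% ± 3.28, above the median gene in all 9. mt-Nd3 had the depth at all 5 times in only 3 replicates and mt-Nd6 in 5, in which mt-Nd6 held 7.86% ± 11.1 at E11.5 (n = 2) and 12.4% ± 5.53 at E14.5 (n = 3) at 4 h. mt-Tm reached the depth at all times in 3 replicates, in which 18.6% to 20.7% (stage means) was left at 2 h.

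**Figure D3:**
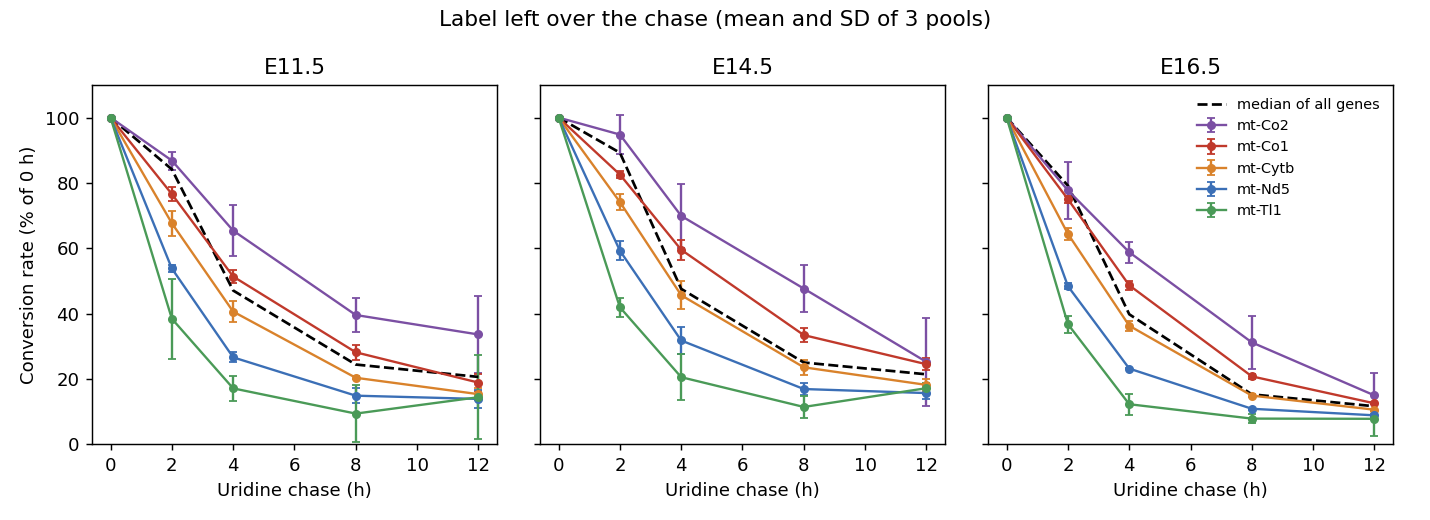
Conversion rate as a percent of that at 0 h (vertical axis) over the hours of uridine chase for 5 mitochondrial genes at each stage, as means with SD bars of 3 pools, and the median of all genes with over 500 covered Ts as a dashed line. At 2 h mt-Co1, mt-Cytb, mt-Nd5 and mt-Tl1 lie below the dashed line, and from 4 h mt-Co1 lies above it at E14.5 and E16.5, whereas mt-Nd5 and mt-Tl1 are below it at 4 and 8 h.

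At 12 h all 5 members tested held less label than at 0 h at each stage (limma with the pool as a block). In that comparison 98.0% of 12125 genes fell at E11.5, 97.8% for E14.5 and 98.7% in E16.5 pools. At E11.5 the log2 changes were -2.35 ± 0.09 (SE) for mt-Co1, -2.64 ± 0.09 for mt-Cytb, -2.78 ± 0.11 for mt-Nd5, -1.62 ± 0.28 for mt-Co2 and -3.72 ± 0.62 for mt-Tl1, where the median gene moved by -2.27. At E14.5 they were -1.98, -2.39, -2.59, -2.10 and -2.50 in that order beside -2.21, and at E16.5 -2.93, -3.16, -3.40, -2.82 and -3.93 beside -3.08. The 15 adjusted p (limma) lay between 1.84e-17 and 0.000635. Relative to the library median, mt-Nd5 lost more label at all 3 stages (-0.49, -0.38 and -0.31 on the log2 scale, adjusted p at most 0.00024), and mt-Cytb at E11.5 and E14.5 (-0.35 and -0.18). mt-Co1 lost less than the median gene at E14.5 and E16.5 (0.23 and 0.16, adjusted p = 0.00012 and 0.00174), and at E11.5 its -0.07 did not pass.

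The 12 h rates of the 3 abundant mRNAs were near those of the least labelled genes. The pooled 12 h rate of the 5% of deeply covered genes with the least label was 0.122% to 0.149% in the 9 pools. mt-Nd5 at 12 h read 0.118% to 0.141% and lay below that level in 7 of 9 pools, mt-Cytb read 0.138% to 0.185% and lay below it in 3, and mt-Co1 read 0.166% to 0.217% and never did. mt-Co2, in contrast, still read 0.744% to 2.69%, and mt-Tl1 0% to 0.357%. This level, used below as the background rate, was taken from genes picked for reading lowest, which can include mt-Nd5 and mt-Cytb themselves. No unlabelled library was analysed here, so the level cannot decide whether mt-Nd5 still held label at 12 h.

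Loss over 12 h was compared between stages with the interaction of the same fit. Between E11.5 and E14.5 no member passed, beside 0.0247% of genes, and mt-Co1 alone had an unadjusted p under 0.05 (0.37 ± 0.13, adjusted p = 0.842), which became an adjusted p of 0.0109 relative to the library median (0.30). From E14.5 to E16.5, the log2 change over the chase was lower for mt-Co1 by -0.95 ± 0.13 (SE, adjusted p = 2.01e-05), for mt-Cytb by -0.77 ± 0.13 (0.000121) and for mt-Nd5 by -0.81 ± 0.15 (0.000242). In the same direction went 57.5% of genes, with a median of -0.86. Relative to the library median these 3 differences were -0.07, 0.11 and 0.07, and none passed. With the background rate subtracted first they were -0.92 for mt-Co1 (limma, adjusted p = 0.0185), 0.11 for mt-Cytb (0.906) and -0.26 for mt-Nd5 (0.516), so that mt-Co1 alone of the 3 passed. Rates below the background were clipped to a floor there. This applied at 12 h to mt-Nd5 in every E14.5 pool and in E16.5 A, and to mt-Cytb in E14.5 B. The subtracted values of both genes depend on that floor and cannot decide whether their loss differed. For mt-Co2 and mt-Tl1 the differences without subtraction were -0.72 ± 0.40 and -1.43 ± 0.88, with adjusted p of 0.127 and 0.166.

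Half-lives were fitted in each replicate as an exponential decay of the rate over all 5 times. The fit decays to 0 and no background rate was subtracted, so any background lengthens the hours. That rate was 0.143% to 0.149% at E11.5 and E14.5, and 0.122% at E16.5, where the 0 h rates were higher. Its part in the order of the stages was not tested. mt-Co1 had 4.43, 4.90 and 4.32 h in the replicates A, B and C of E11.5, then 5.73, 5.17 and 5.78 h for E14.5 and 4.04, 3.83 and 3.86 h for E16.5. The E14.5 replicates lay above all others and E16.5 below. mt-Cytb had 3.18, 3.61 and 3.62 h, then 4.10, 3.65 and 4.37 h, then 3.09, 2.93 and 2.88 h, with the stages in the same order and no overlap. mt-Nd5 had 2.32, 2.52 and 2.31 h, then 2.65, 2.60 and 3.17 h, then 2.00, 2.03 and 1.99 h. mt-Tl1 had 1.47, 1.26 and 2.02 h, then 1.84, 2.11 and 1.49 h, then 1.51, 1.41 and 1.28 h, in which the stages overlapped. mt-Co2 was the least even, with 6.39, 5.79 and 8.96 h, then 5.99, 7.02 and 9.59 h, then 5.73, 4.03 and 4.99 h.

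The order of half-lives was the same in 9 of 9 replicates: mt-Co2 above mt-Co1, mt-Co1 above mt-Cytb, mt-Cytb above mt-Nd5 and mt-Nd5 above mt-Tl1. The place of mt-Co2 carries the reservation about its nuclear copies. Whether the mt-Tl1 reads, taken by poly(A) capture, came from the mature tRNA was not tested. The ratio of mt-Co1 to mt-Cytb lay between 1.19 and 1.42 and that of mt-Cytb to mt-Nd5 between 1.37 and 1.56, both narrow ranges. That of mt-Nd5 to mt-Tl1 ranged from 1.14 to 2.13, and that of mt-Co2 to mt-Co1 from 1.05 to 2.08, so these neighbours lay close together in some replicates. The 3 abundant mRNAs kept this order and were labelled to nearly the same degree at 0 h. Among genes with a usable half-life in the replicate, mt-Co1 lay between the 48.9 and 73.7 percentile, mt-Cytb between 18.1 and 41.1, mt-Nd5 between 4.83 and 13.99 and mt-Tl1 between 0.189 and 4.22. Usable half-lives of mt-Nd6 (3 replicates), mt-Tm (3) and mt-Nd3 (3) ranged from 1.26 to 1.88 h, from 0.907 to 1.14 h and from 2.27 to 3.47 h.

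Half-lives were then compared between stages. The all-gene median half-life was 3.97 to 4.83 h at E11.5, 4.51 to 4.83 h for E14.5 and 3.43 to 3.58 h in E16.5 pools. After z-scoring within each replicate, none of the 5 members passed in either step (limma), beside 1.37% and 3.31% of 9505 genes. Unadjusted p was under 0.05 for 2 members from E11.5 to E14.5, mt-Co1 (0.35 ± 0.10 SD units, SE, adjusted p = 0.159) and mt-Nd5 (0.17 ± 0.07, 0.33), and for none from E14.5 to E16.5. On log2 hours without z-scores or background subtraction, 4 members were shorter at E16.5 than at E14.5, where the median gene moved by -0.43. They were mt-Co1 (-0.51), mt-Co2 (-0.60), mt-Cytb (-0.44) and mt-Nd5 (-0.48).

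**Figure D4:**
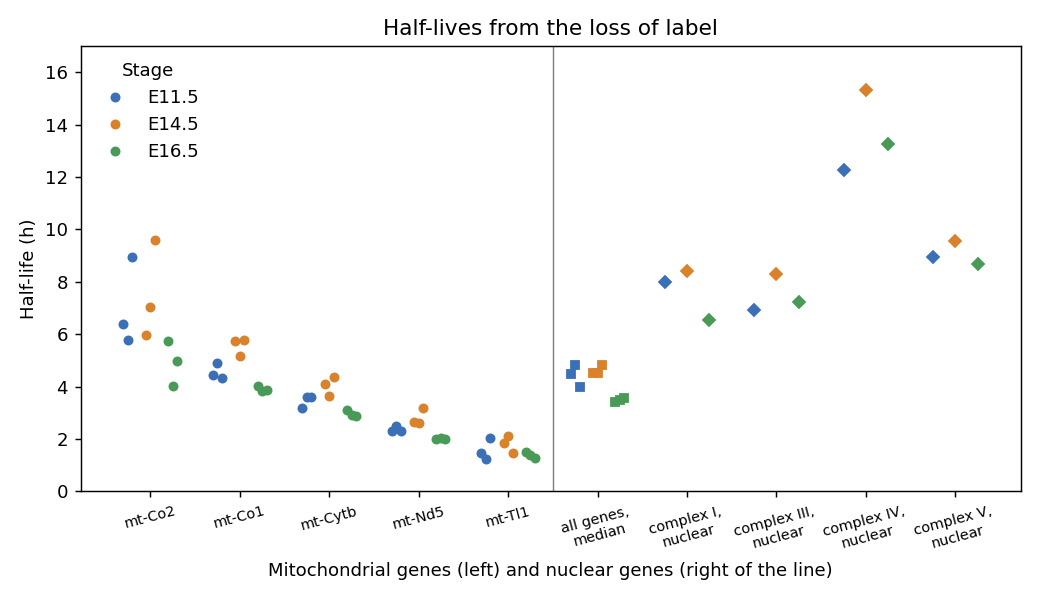
Half-life in hours (vertical axis) of 5 mitochondrial genes in each of 9 replicates (circles, left), the median of all genes in each replicate (squares) and the medians of nuclear genes for subunits of complexes I, III, IV and V by stage (diamonds). All circles of mt-Nd5 and mt-Tl1 lie at or below 3.17 h, and the diamonds lie between 6.55 and 15.3 h.

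Nuclear genes for the same complexes had longer half-lives than mt-Co1, mt-Cytb and mt-Nd5. Of 9 nuclear genes of complex IV with usable values at E11.5, the median was 12.3 h and the shortest 8.69 h, where mt-Co1 had 4.55 ± 0.311 h. For complex III the median of 8 genes was 6.93 h and the shortest 5.45 h, against 3.47 ± 0.248 h for mt-Cytb. For complex I it was 7.97 h over 32 genes, the shortest being 4.67 h, against 2.38 ± 0.116 h for mt-Nd5. At E14.5 and E16.5 the medians were 15.3 and 13.2 h for complex IV, 8.31 and 7.23 h for complex III and 8.42 and 6.55 h for complex I. Each of the 3 mitochondrial mRNAs lay below the shortest nuclear gene of its complex at all 3 stages, the nearest pair being mt-Cytb at 2.97 ± 0.112 h and a complex III gene at 4.38 h at E16.5.

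The levels of the nuclear subunits were tested in the same fit. From E11.5 to E14.5, 19 of 72 nuclear subunit genes tested rose and 6 fell, where 25.1% of all genes rose and 23.5% fell, with a median log2 change of 0.09 against -0.01 for all genes. From E14.5 to E16.5, 5 rose and 29 fell, where 24.1% of all genes rose and 25.4% fell, with a median of -0.16 against 0.00. Complex V had 9 of 16 genes lower in that step and complex I 12 of 36.

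Nuclear factors of mitochondrial RNA were taken from 7 lists, whose counts are read beside those shares of all genes. From E11.5 to E14.5, 12 of 66 genes tested rose and 16 fell, with a median of 0.01, and from E14.5 to E16.5, 8 rose and 26 fell, with a median of -0.15. Among 10 transcription genes, 2 rose and 1 fell in the earlier step, and 1 rose and 5 fell in the later. Polrmt, the mitochondrial RNA polymerase, fell (-0.38 ± 0.14, SE, adjusted p = 0.0382, edgeR) and then rose (0.74 ± 0.14, 0.000762), and Tefm, the elongation factor, was at -0.64 ± 0.10 in the later step. Mterf1a, a termination factor with a near-identical neighbour gene so that its counts are uncertain, fell by 1.01 ± 0.25 in that step. Of 7 replication genes, 2 rose and 2 fell, then 0 rose and 4 fell. Dna2, a nuclease and helicase that also acts in the nucleus, fell in both steps (-1.07 ± 0.13 and -0.98 ± 0.13), as did the exonuclease Mgme1 (-0.47 and -0.46), and Ssbp1, the single-strand binding protein, fell in the second (-0.60 ± 0.08).

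Of 6 genes for cleavage of the precursors, 2 rose and 1 fell, then 1 rose and 3 fell. Trmt10c, a subunit of mitochondrial RNase P, rose by 0.40 ± 0.09 and then fell by 0.28 ± 0.09, and its partner Hsd17b10 fell in both steps (-0.46 and -0.46). Trnt1, which adds the CCA end to tRNAs, fell in the second (-0.39 ± 0.08). Of 7 genes for polyadenylation, stability and decay, 2 rose and 2 fell, then 0 rose and 3 fell. Slirp, which binds them with Lrpprc, rose by 0.28 ± 0.09 and then fell by 0.54 ± 0.09, and Pnpt1, the mitochondrial polynucleotide phosphorylase, fell in both steps (-0.41 and -0.52). Rexo2, an oligoribonuclease, fell in the second (-0.35 ± 0.11).

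Of 13 genes of the FASTK family and RNA granules, 4 fell from E11.5 to E14.5 and 6 from E14.5 to E16.5, and none rose. The pseudouridine synthases Rpusd3 (-0.94 ± 0.15) and Rpusd4 (-0.50 ± 0.13) fell in the earlier step and Fastkd2 (-0.49 ± 0.07) in the later. Of 14 genes for rRNA and tRNA modification, 0 rose and 4 fell, then 2 rose and 4 fell. The rRNA methyltransferases Tfb1m (-0.83 ± 0.14, then -0.63 ± 0.14) and Nsun4 (-0.77 ± 0.11 in the later step) and the pseudouridine synthase Pus1 (-0.57 ± 0.14 in the earlier) fell. Of 9 genes that supply pyrimidine nucleotides, 4 rose and 2 fell in the earlier step and 4 rose and 1 fell in the later. Slc25a33, a mitochondrial carrier of pyrimidine nucleotides, rose by 1.10 ± 0.14 in the earlier step, Cmpk2, a mitochondrial nucleoside monophosphate kinase, by 0.67 ± 0.15 in the later, and Tk2, the mitochondrial thymidine kinase, in both (0.67 ± 0.09 and 0.35 ± 0.09).

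Whether levels, as counts of covered Ts, held steady over the chase bears on the reading of a fall in label. At E14.5 and E16.5, of mt-Co1, mt-Cytb and mt-Nd5, only mt-Co1 changed between 0 h and 12 h, and fell by 0.37 ± 0.07 (adjusted p = 0.000772, edgeR with the pool as a block) and by 0.21 ± 0.07 (0.0297) on the log2 scale. mt-Tm rose at E14.5 (0.69 ± 0.25, 0.0436) and mt-Tl1 fell at E16.5 (-0.43 ± 0.16, 0.0459), so that 2 of 8 members passed at each of these stages, beside 30.3% and 29.6% of 17224 genes. At E16.5 the call of mt-Co1 was lost without E16.5 B or C (-0.20 and -0.16) and that of mt-Tl1 without any replicate of that stage (-0.53, -0.47 and -0.28). That of mt-Tm was lost in 5 of 9 fits that left out 1 replicate, among them those without E14.5 A or C (0.67 and 0.52). With 8 h in place of 12 h, an alternative chosen after seeing the data, mt-Co2 fell at E14.5 (-0.99, adjusted p = 1.16e-05) and rose at E16.5 (0.39, 0.00572), and mt-Co1 fell at E14.5 (-0.24, 0.0196) and did not pass at E16.5 (-0.08).

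At E11.5, 4 of 8 members passed, beside 34.6% of genes. mt-Co2 went from 14.9, 16.3 and 17.1 CPM at 0 h to 5.73, 4.48 and 3.07 at 12 h (-1.74 ± 0.20, adjusted p = 2.9e-06), and mt-Nd3 fell by 1.12 ± 0.27 (0.00352). mt-Nd6 rose by 1.04 ± 0.21 (0.00093), from 1.37, 0.769 and 1.46 to 2.11, 1.56 and 2.38. mt-Cytb rose by 0.20 ± 0.07 (0.0393), a call that was lost in 4 of 9 fits that left out 1 replicate, among them those without E11.5 A or B (0.21 and 0.06). Its CPM went from 894, 868 and 1331 to 937, 1027 and 1003, so without the TMM scaling of the fit replicate C fell. The E11.5 libraries at 12 h are those with much Gm42418, and leaving that gene out of the counts left 4 members called. With 8 h in place of 12 h, where Gm42418 was at 0.375% to 0.510%, mt-Co2 still fell (-1.16, adjusted p = 1.91e-06), mt-Nd3 and mt-Nd6 did not pass (adjusted p = 0.26 and 0.16), and mt-Co1 did (-0.32).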

How the data were processed

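The authors labelled, chased, alkylated and sequenced poly(A)-selected RNA and processed reads with SlamDunk v0.4.3 on mm10 and GENCODE vM24 exons, per their methods. The deposited tables, 1 per replicate, give for each gene and chase time the conversion rate as a fraction, covered-T counts and reads as CPM. Their half-lives and means were not used. CPM values were whole multiples of 1 read (100% within 0.1 read), so the authors' CPM gave back read counts. Replicate pools are biological, and wells of 1 pool are paired by construction.

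Covered-T counts were tested with edgeR 4.0.16 (TMM, over 10 in all libraries) and log2(rate in percent + 0.01) with limma 3.58.1, with the mean log2 covered Ts as trend, for genes with over 500 covered Ts. A read covers several Ts, so covered Ts are not independent counts, and over 10 of them can rest on few reads. Half-lives needed R2 over 0.6 and under 24 h. The edgeR, DESeq2, limma and exponential half-life fits were tested on simulated data. The simulated label for half-lives decayed to 0 without a background rate, so the effect of a background was not tested there. DESeq2 1.42.0 and other alternatives are in the closing section. Nuclear copies came from blastn 2.17.0. Coordinates are GRCm38 (mm10). All member mRNAs and the better covered tRNAs were named, and the other tRNAs were mostly given by range and count. Nuclear factors were named by up to 3 largest changes per list that passed, and copies by 200 shared bases at 95% identity. Members and lists were chosen with earlier results of these data known.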

Additional observations from a re-analysis of the deposited data

Results flagged for a closer look

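Comparing stage E16.5 with E14.5, the log2 change in conversion rate over 12 h differed by -0.95 for mt-Co1, by -0.77 for mt-Cytb and by -0.81 for mt-Nd5, by a test of the difference between stages (limma interaction, n = 3 pools a stage, a difference that 57.5% of genes passed in that direction). Relative to the library median none of these differences passed. With the background rate subtracted they were -0.92 (adjusted p = 0.0185, limma), 0.11 (0.906) and -0.26 (0.516). Rates below the background were clipped to a floor there, as for mt-Nd5 at 12 h in every E14.5 pool and for mt-Cytb in E14.5 B. The subtracted values of mt-Nd5 and mt-Cytb therefore cannot decide whether their loss differed.

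The log2 change in covered Ts between 0 h and 12 h differed between E14.5 and E11.5 by 1.23 ± 0.27 (SE) for mt-Co2 (adjusted p = 0.00532, edgeR interaction) and by 1.24 ± 0.38 for mt-Nd3 (0.0376), beside 12.0% of genes. With 8 h in place of 12 h, chosen after seeing the data, mt-Co2 changed by -1.16 at E11.5 and by -0.99 at E14.5, and mt-Nd3 by -0.51 and -0.31, where the difference between stages was not tested. The E11.5 libraries at 12 h were those with 2.97% to 6.76% of reads on Gm42418, and its part in the difference was not tested.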

How the results depend on the processing

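Of 234 counts of members called that were recomputed for 14 results, 203 lay within 1.5 times the reported count. The cause was not tested for those that did not. Shares of all genes called under each alternative are not given here, so these counts bear only on how the calls depend on processing. Asking for a 2-fold change left 0 and 1 members called for expression at 0 h in the earlier and later step, and 0 over the chase at E14.5 and 0 at E16.5. Without a filter on counts, 2 members were called in the later step and 4 and 4 over the chase at E14.5 and E16.5. DESeq2 called 6 and 4 members for expression at 0 h, with mt-Tl1 (0.58, adjusted p = 0.0195) and mt-Tm (0.72, 0.0375) gained in the earlier step, and 4, 3 and 2 over the chase, with mt-Nd6 (0.56, 0.0300) gained at E14.5. Without TMM, 1 was called over the chase at E14.5. Libraries at 12 h in place of 0 h gave 7 in the earlier step, where those of E11.5 are the libraries with much Gm42418. With 8 h in place of 12 h, an alternative chosen after seeing the data, 2 were called at E11.5 and 1 at E16.5. Centring on the library median gave 0 for the rate at 0 h in the later step, 2, 3 and 2 for the loss over 12 h in order of stage, and 1 and 0 for its difference between stages. That difference in the later step gave 5 with a pseudocount of 0.1 and 1 with the background rate subtracted. Half-lives in hours gave 3 in the later step and in log2 hours 4.

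Leaving out each replicate gave 4 to 6 and 2 to 5 for expression at 0 h, 3 to 5, 1 to 3 and 0 to 3 over the chase, 0 to 0 and 4 to 6 for the rate at 0 h, 5 to 6 at each stage for the loss, 0 to 0 and 3 to 4 for its difference and 0 to 0 for both steps of half-life. A count of 6 arises where another member passed the coverage filter.

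Within a stage the letters mark 1 pool split over wells. Without the replicate block, 3, 1 and 0 members were called over the chase in order of stage, and the counts for the loss of label (5, 5 and 5, then 0 and 3) were as reported. Between stages the letters are different embryos, whose deviations correlated at -0.135 to 0.131 for expression and -0.0472 to 0.0709 for the rate (9 pairs), and a replicate block gave 6 and 4, 0 and 5, and 0 and 0 members for expression, rate and half-life.

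Of 1444 recomputed values of single genes, 1264 kept direction and side of the threshold, 68 lost the call, 56 gained it and 56 changed sign. Some values that changed sign lay near 0 and others did not. The centred losses of mt-Co1 at E14.5 and E16.5 passed with the opposite sign. In expression over the chase with 8 h, mt-Nd5 and mt-Tl1 gave -0.039 and -0.27 at E11.5, mt-Cytb and mt-Nd3 0.050 and -0.31 at E14.5, and mt-Cytb and mt-Nd5 0.0087 and 0.080 at E16.5, and the difference in loss of mt-Co2 in the earlier step was 0.26. mt-Tl1 over the chase at E11.5 gave -0.089 without TMM, -0.0015 on recovered reads and -0.033 without the replicate block. mt-Nd3 at 0 h in the earlier step gave 0.036 on recovered reads, 0.027 with the replicate block, 1.16 at 12 h and 0.0084 with limma on log2(CPM + 1), and mt-Nd5 in the later step 0.010 at 12 h. Centred, the rate of mt-Tl1 at 0 h in the later step was -0.090, the loss was 0.66, 0.11 and 0.26 for mt-Co2 over the stages and 0.23 and 0.16 for mt-Co1 at E14.5 and E16.5, and its difference in the later step was 0.16 for mt-Co2, 0.11 for mt-Cytb and 0.070 for mt-Nd5. With the background subtracted that of mt-Cytb was 0.11, and half-lives in the later step were 0.063 for mt-Cytb and 0.058 for mt-Nd5. Half-lives in hours gave 0.49 (mt-Co2, earlier) and -0.41 (mt-Tl1, later), in log2 hours 0.094 and -0.36, and by a log-linear slope -0.012 (mt-Nd5, earlier), 0.16, 0.17 and 0.27 (mt-Co2, mt-Cytb and mt-Nd5, later).

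Over the fits without 1 replicate, expression at 0 h ranged from -0.34 to 0.23 for mt-Nd3 (earlier step) and from -0.17 to 0.058 for mt-Nd5 (later). Over the chase it ranged from -0.031 to 0.31 for mt-Nd5 and -0.21 to 0.32 for mt-Tl1 at E11.5, from -0.0097 to 0.24 for mt-Nd3 and -0.18 to 0.062 for mt-Tl1 at E14.5, and from -0.15 to 0.043 for mt-Nd5 at E16.5. The rate at 0 h in the earlier step ranged from -0.17 to 0.013 for mt-Co2, -0.33 to 0.0040 for mt-Cytb and -0.27 to 0.036 for mt-Nd5, and the difference in loss of mt-Tl1 from -0.31 to 2.08. Half-lives ranged from -0.67 to 0.64 for mt-Co2 (earlier), -0.089 to 0.019 for mt-Cytb and -0.0447 to 0.048 for mt-Nd5 (later).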
